A study of Rattus norvegicus with 24 samples.

Results

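The nigra of lesioned rats that took levodopa without becoming dyskinetic was set against the nigra of rats that took levodopa and had no lesion. The arrays were chosen by their titles: 3 non-dyskinetic and 3 intact nigral arrays, 6 of the 24 in the series. Non-dyskinetic rats had received 2 unilateral injections of 6-hydroxydopamine, a toxin taken up by dopamine neurons, at 5 µg/µl, then daily levodopa, the precursor of dopamine, from 3.5 weeks after the surgery. They showed no levodopa-induced dyskinesia, the involuntary movements scored in 7 rating sessions. Intact rats had received the ascorbate-saline vehicle in place of the toxin, and daily levodopa. The other nigral groups, 3 arrays each, were lesioned rats on levodopa that became dyskinetic and lesioned rats given no levodopa, here called lesioned vehicle. All were adult male Sprague Dawley rats of 200 to 225 g, and a lesion counted as successful when striatal dopamine had fallen by over 90%. No group was free of both toxin and levodopa. RNA came from punches of 0.5 by 1.5 mm, with an integrity number of at least 7. The labels give neither the dose of levodopa, nor the side of the brain, nor the time since the last injection, nor each rat's own dopamine loss.

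The dopamine neurons of the substantia nigra send their axons to the striatum. They make dopamine from tyrosine with tyrosine hydroxylase (Th) and aromatic amino acid decarboxylase (Ddc), load it into vesicles through the transporter Slc18a2 and take it back up through Slc6a3. The transcription factors Nr4a2, Pitx3, En1 and Lmx1b specify and maintain them. The same tissue holds GABA neurons of the pars reticulata, which do not take up the toxin, and glia. In a tissue punch, fewer cells of a type and less RNA per cell cannot be told apart.

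Levels are log2 values, averaged per gene across those probe sets that name no other gene. A difference is non-dyskinetic minus intact, a difference of 1 is a doubling, and ± gives its standard error from the fit. A gene passed when limma's p was under 0.05 after Benjamini-Hochberg adjustment across all 12436 genes tested. The number of arrays limits the precision. The labels name a separate animal for each array of a group.

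Of the 6 arrays compared none carried the striatal or serotonergic signals seen in 3 arrays of the other nigral groups. The mean of 12 measured striatal projection neuron genes was 8.21 to 8.23 in non-dyskinetic and 8.31 to 8.40 in intact arrays, and reached 9.17 in lesioned vehicle array 1. The mean of 8 serotonin neuron genes was 7.49 to 7.59 in non-dyskinetic and 7.61 to 7.68 in intact arrays, against 8.45 in dyskinetic array 3 and 8.29 in lesioned vehicle array 3. In the comparison with intact nigra these arrays enter the shared estimate of the spread and the filter on low values, and no group mean. Without them 578 genes passed, against 584 with them, and 507 genes passed in both. This setting was chosen after seeing the data.

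Promoter sequences are shown for 3 genes of dopamine synthesis and storage that fell together. Each runs from 250 bases before to 50 after a gene start in RefSeq, assembly GRCr8, printed 5′ to 3′ on the gene's strand. Capitals mark a match to TGACGTCA, the cyclic AMP response element, in Th (chr1:207508169-207508468, minus strand) and Slc18a2 (chr1:268399771-268400070, plus strand). In Ddc (chr14:90682734-90683033, minus strand, 1 of 3 listed starts) they mark a match on the reverse strand to AAAGGTCA, which binds the Nr4a receptors.
Th: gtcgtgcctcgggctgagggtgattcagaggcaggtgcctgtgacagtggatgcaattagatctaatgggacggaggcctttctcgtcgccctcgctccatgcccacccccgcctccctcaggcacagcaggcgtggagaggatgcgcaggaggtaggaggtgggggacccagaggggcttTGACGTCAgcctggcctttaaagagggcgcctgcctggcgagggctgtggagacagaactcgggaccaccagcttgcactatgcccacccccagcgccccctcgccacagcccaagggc
Slc18a2: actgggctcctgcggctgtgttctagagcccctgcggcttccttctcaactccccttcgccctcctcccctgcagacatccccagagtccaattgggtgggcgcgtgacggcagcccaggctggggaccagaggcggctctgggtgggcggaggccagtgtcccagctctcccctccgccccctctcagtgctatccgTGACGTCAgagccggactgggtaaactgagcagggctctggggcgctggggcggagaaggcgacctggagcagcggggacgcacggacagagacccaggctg
Ddc: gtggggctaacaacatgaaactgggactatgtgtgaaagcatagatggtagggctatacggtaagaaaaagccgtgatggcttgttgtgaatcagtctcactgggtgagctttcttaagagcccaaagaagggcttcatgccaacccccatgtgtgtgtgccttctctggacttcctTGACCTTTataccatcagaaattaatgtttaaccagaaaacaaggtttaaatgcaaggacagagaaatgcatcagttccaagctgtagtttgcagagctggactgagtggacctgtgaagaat
These windows were picked because they hold a match, and most do not. Of 102 named genes 77 had a window, and AAAGGTCA occurred in 4, TAATCC (bound by Pitx factors) in 5, TGACGTCA in 3, and an interferon element (GAAA, any 2 bases, GAAA) in 5, both strands searched. Of the 4 with AAAGGTCA, Ddc passed against intact nigra, and Acacb, Acsm5 and Kcne5 did not. Over all 33469 windows the shares were 1.43%, 7.17%, 1.83% and 3.92% in that order. Among the 403 genes with a window that fell, 0.993% held AAAGGTCA and 4.71% held TGACGTCA, against 0.982% and 3% of the 10283 tested genes with one. TAATCC stood in 4.71% and the interferon element in 2.98% of them, against 5.37% and 3.01%. In the 70 genes with a window that rose, AAAGGTCA, TAATCC, TGACGTCA and the interferon element stood in 1.43%, 10%, 1.43% and 5.71%. A match is a description of the letters, not of binding.

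Falls outnumbered rises. Of 12436 genes 584 passed (4.7%), 494 lower (3.97%) and 90 higher (0.724%) in the non-dyskinetic nigra, while the median difference over all genes was 0.0017. Of the falls 54 were at least a halving, of the rises 3 at least a doubling. At an unadjusted p under 0.05, 907 genes were higher (7.29%) and 1339 lower (10.8%), the background for the unadjusted counts given for lists. For counts of list members that passed, the background is 3.97% lower and 0.724% higher. The compared arrays did not overlap in 2968 genes (23.9%), which included all 584. Non-dyskinetic array 3 was the lowest of its group in 320 of the 494 genes that fell and the highest in 59 of the 90 that rose. Without that array 271 genes passed, 20 higher and 251 lower, and without intact array 2 the number was 224, 15 higher and 209 lower. With array weights 296 were higher and 695 lower.

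**Figure D1:**
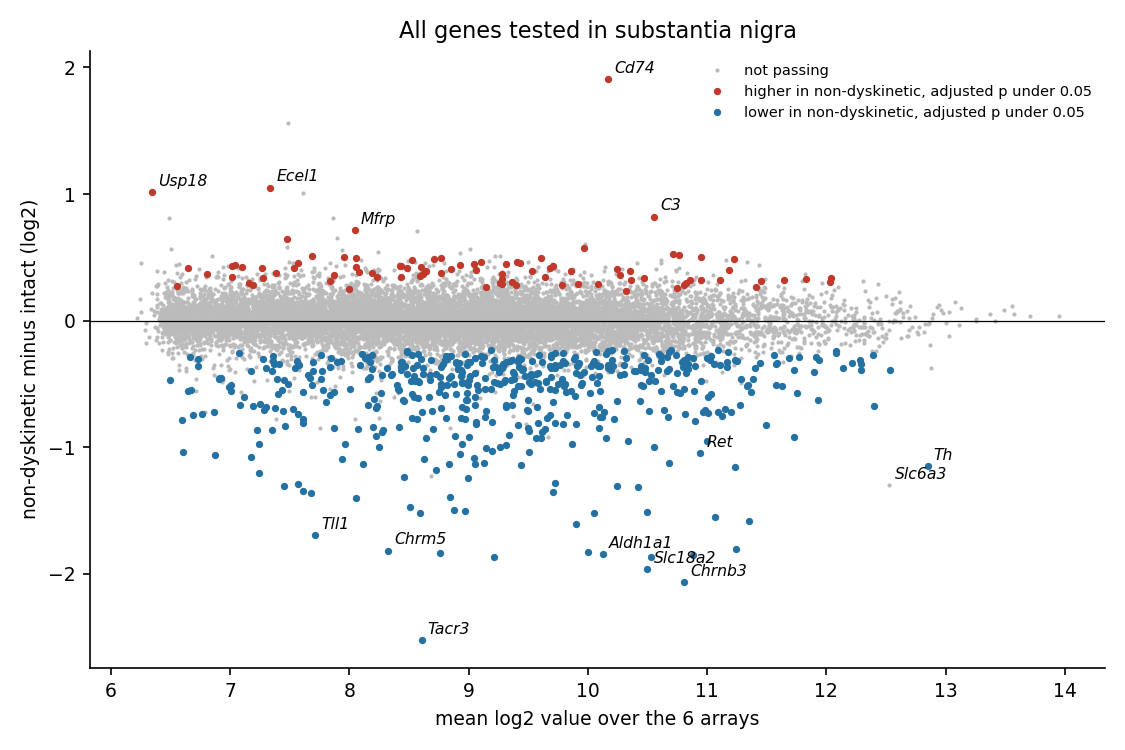
Difference between non-dyskinetic and intact nigra (log2, vertical axis) against the mean log2 value over the 6 arrays (horizontal axis) for the 12436 genes tested, 1 point per gene. The 494 genes that fell reach a difference of -2.52 (Tacr3), and the 90 that rose reach 1.91 (Cd74).

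Genes of dopamine synthesis and transport were lower. Of 12 members measured 5 fell (Ddc, Gch1, Slc18a2, Slc10a4 and Th) and 0 rose, with a median difference of -0.68 (3.97% of all genes fell). Slc18a2, the vesicular monoamine transporter, stood at 9.77, 9.67 and 9.11 in the non-dyskinetic arrays, against 11.40, 11.60 and 11.44 in the intact arrays. All non-dyskinetic arrays lay over 1.5 log2 units below the intact arrays. The fall was -1.97 ± 0.31 (adjusted p = 0.00248), to 25.6% of the intact level. Ddc stood at 9.75, 9.96 and 9.52 in non-dyskinetic arrays, against 11.19, 11.40 and 11.17 in intact arrays, with a difference of -1.51 ± 0.22 (adjusted p = 0.00134). Gch1, which starts the synthesis of the cofactor of tyrosine hydroxylase, stood at 6.61, 6.69 and 6.63 in non-dyskinetic arrays, against 7.69, 8.20 and 7.64 in intact arrays. Its groups were also separate, with a difference of -1.21 ± 0.15 (adjusted p = 0.000505). Slc10a4, a transporter of aminergic vesicles, fell by 1.81 ± 0.29 on the log2 scale (adjusted p = 0.00289).

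Th, although separate between the groups, passed by a narrow margin, and Slc6a3 did not pass. Th stood at 12.450, 12.362 and 12.0045 in the non-dyskinetic arrays, against 13.39, 13.50 and 13.38 in the intact arrays. The difference was -1.15 ± 0.30 (adjusted p = 0.0481), to 45% of the intact level. Its call was lost in 10 of 15 other settings, where the adjusted p ran from 0.000399 to 0.186 over all 15. Slc6a3, the dopamine transporter, stood at 12.17, 11.87 and 11.59 in non-dyskinetic arrays, against 13.03, 13.32 and 13.18 in intact arrays. The groups were again separate, but the difference of -1.30 ± 0.36 did not pass (adjusted p = 0.06). With only the 6 compared arrays in the fit the standard error of Slc6a3 was 0.14 and the adjusted p 0.000622. For Th the same fit gave 0.11 and 0.000436. All 13 probe sets of Th, all 17 of Slc18a2 and 15 of 16 of Slc6a3 had every non-dyskinetic array below every intact array. The share of separate probe sets over all genes was not computed. Members of the list that serve other cells as well had small differences that did not pass, such as Maoa (-0.18) and Maob (0.10), which break down monoamines, and Qdpr (0.15), which recycles the cofactor.

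**Figure D2:**
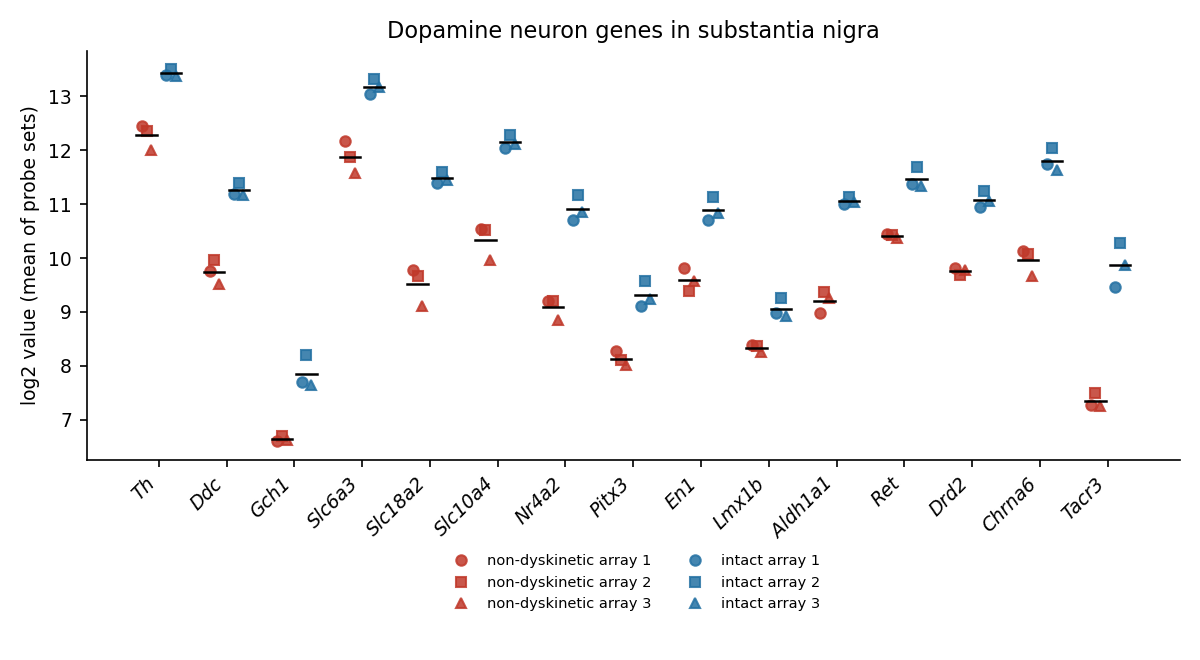
Log2 values of 15 genes of dopamine neurons in each of the 3 non-dyskinetic (red, left of each pair) and 3 intact arrays (blue, right), with black lines at group means. The 15 genes were picked with their values known. Their groups do not overlap, as in all 584 genes that passed and in 23.9% of all genes tested. Slc6a3 alone among the 15 did not pass the test.

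Genes that mark midbrain dopamine neurons were lower as a group: 22 of 28 tested fell (3.97% of all genes), 0 rose and 6 did not pass, with a median of -1.04. Nr4a2 stood at 9.20, 9.20 and 8.85 in non-dyskinetic arrays, against 10.71, 11.17 and 10.86 in intact arrays, a difference of -1.83 ± 0.21 (adjusted p = 0.000341). Pitx3 fell by 1.18 ± 0.13 (adjusted p = 0.000217) and En1 by 1.30 ± 0.18 (adjusted p = 0.00109). Lmx1b fell by 0.71 ± 0.09 (adjusted p = 0.000648), and Foxa1, a forkhead factor of these neurons, had a difference of -0.98 and passed too. Of 8 probe sets of Lmx1b 7 were separate, and the one with the highest intact level differed by -0.19. The transcription factors did not change alike in size: Foxa2 differed by -0.38, Sox6 by -0.11 and Otx2 by 0.05, and Sox6 and Otx2 did not pass.

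Aldh1a1, an aldehyde dehydrogenase of ventral nigral dopamine neurons, stood at 8.98, 9.36 and 9.26 in non-dyskinetic arrays, against 10.99, 11.12 and 11.03 in intact arrays. The difference was -1.85 ± 0.17 (adjusted p = 0.000129), and all 14 probe sets were separate. Calb1, which encodes calbindin of dorsal and ventral tegmental dopamine neurons, differed by -1.23 without passing (adjusted p = 0.077). Sncg, gamma-synuclein, differed by -1.52 and passed (adjusted p = 0.0044). Drd2, the inhibitory dopamine receptor that these neurons use as autoreceptor, stood at 9.82, 9.68 and 9.77 in non-dyskinetic arrays, against 10.94, 11.23 and 11.06 in intact arrays. It fell by 1.32 ± 0.17 (adjusted p = 0.00066), and it also stands in the lists of dopamine receptors and of striatal projection neurons, where it was the only member of 12 tested that passed.

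Receptors for transmitters and peptides were among the largest falls. Tacr3, the neurokinin receptor for neurokinin B, stood at 7.26, 7.51 and 7.26 in the non-dyskinetic arrays, against 9.45, 10.28 and 9.87 in the intact arrays. The difference of -2.52 ± 0.23 (adjusted p = 0.000129) left 17.4% of the intact level. Ntsr1, a neurotensin receptor, stood at 9.73, 9.74 and 9.32 in non-dyskinetic arrays, against 11.22, 11.72 and 11.46 in intact arrays, and fell by 1.87 ± 0.24 (adjusted p = 0.000649). Chrm5, a muscarinic acetylcholine receptor, fell by 1.82 ± 0.19 (adjusted p = 0.000188).

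Nicotinic acetylcholine receptor subunits fell in 6 of 8 tested (3.97% of all genes), with a median of -1.12. Chrnb3 stood at 9.99, 9.90 and 9.44 in non-dyskinetic arrays, against 11.70, 12.10 and 11.73 in intact arrays, a difference of -2.07 ± 0.31 (adjusted p = 0.00176). Chrna6, its partner in dopamine neurons, stood at 10.12, 10.07 and 9.67 in non-dyskinetic arrays, against 11.74, 12.05 and 11.63 in intact arrays. It differed by -1.85 ± 0.30 (adjusted p = 0.00297). Chrna5 and Chrna3 fell by 1.83 ± 0.25 and 1.52 ± 0.25. Of 10 probe sets of Chrna5 8 were separate, and the one with the highest intact level differed by 0.016. The widely used subunits Chrna4 (-0.72) and Chrnb2 (-0.54) passed with smaller differences, and Chrna7 (-0.16) and Chrnb4 (0.01) did not pass.

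Ion channels that shape the firing of dopamine neurons fell in 7 of 21 tested (3.97% of all genes), and the median was -0.20. Kcnn3, a calcium-activated potassium channel, stood at 9.08, 9.06 and 8.94 in non-dyskinetic arrays, against 10.10, 10.66 and 10.39 in intact arrays, a difference of -1.36 ± 0.14 (adjusted p = 0.000188). Kcnj6, the potassium channel opened through Drd2, fell by 1.24 ± 0.17 (adjusted p = 0.000987). Trpc6 fell by 0.85 ± 0.12 and Kcns3, a modulatory potassium channel subunit, by 0.81 ± 0.11. Other receptors that passed were Gabra4 (-0.82 ± 0.11) and Gabra3 (-0.29 ± 0.07), subunits of the GABA-A receptor, and the kainate receptor subunits Grik3 (-1.13 ± 0.13) and Grik1 (-0.55 ± 0.14). The calls of Gabra3 and Grik1 were lost in 7 of 15 and 7 of 14 settings. The serotonin receptors Htr3a (-0.46 ± 0.06, call lost in 1 of 14 settings) and Htr5a (-0.44 ± 0.07) passed as well. These were 2 of 13, 2 of 22 and 2 of 12 genes tested in their lists, against 3.97% of all genes, and no member of these lists rose.

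Of the neurotrophic factors and receptors 3 of 20 fell (3.97% of all genes), 0 rose, and the median was -0.066. Ret, the signalling receptor for glial cell line-derived neurotrophic factor, stood at 10.44, 10.43 and 10.38 in non-dyskinetic arrays, against 11.37, 11.69 and 11.33 in intact arrays. The difference of -1.05 ± 0.09 (adjusted p = 9.8e-05) left 48.4% of the intact level. Its coreceptor Gfra1 fell by 0.76 ± 0.09 (adjusted p = 0.000387), while the ligand Gdnf differed by -0.12 and did not pass. Fgf20, a growth factor of dopamine neurons, fell by 1.36 ± 0.16 (adjusted p = 0.000501). Ntf3, neurotrophin-3, fell by 0.79 ± 0.20 (adjusted p = 0.0404), a call lost in 9 of 14 other settings.

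Other genes among the 15 largest falls were the following. Sv2c, a synaptic vesicle glycoprotein of basal ganglia neurons, fell by 1.55 ± 0.14, and Cadps2, which primes dense-core vesicles, fell by 1.61 ± 0.15 (adjusted p = 0.000129 for each). Tll1, a tolloid-like metalloprotease, fell by 1.69 ± 0.16, Dlk1, a membrane protein related to Notch ligands, by 1.58 ± 0.24, and Cpne7, a copine that binds membranes with calcium, fell by 1.87 ± 0.26. Of 17 neuropeptide genes Cck (-0.75 ± 0.16), cholecystokinin, and Scg2 (-0.37 ± 0.08), secretogranin, fell. Of 16 axon and cytoskeleton genes the growth-associated Gap43 (-0.41 ± 0.08) and Stmn2 (-0.35 ± 0.06) fell. Cck, Scg2 and Stmn2 each lost the call in 2 of 15 settings, and Gap43 in 1. The share of all genes tested that fell, 3.97%, is the background for these list counts and the next. Of 14 genes linked to Parkinson disease 1 passed, Dnajc6 (-0.52 ± 0.07, adjusted p = 0.000648), which encodes auxilin, a factor that uncoats synaptic vesicles.

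The lists of nigral GABA, midbrain glutamate and serotonin neurons held 1 call each, a fall. These were 1 of 15, 1 of 8 and 1 of 6 genes tested, each a larger share than the 3.97% of all genes that fell. Of 15 genes of nigral GABA neurons 14 had a difference above 0, with a median of 0.257, and none of these 14 passed. The only member that passed was Kcns3, which fell and is also listed among the channels of dopamine neurons. Gad1 and Gad2, which make GABA, differed by 0.27 and 0.26, and Pvalb, parvalbumin, by 0.33. At an unadjusted p under 0.05, 7 of the 15 were higher, against 7.29% of all genes tested. The mean of the 15 was 10.26, 10.22 and 10.13 in non-dyskinetic arrays, against 10.11, 9.90 and 10.08 in intact arrays, lowest in intact array 2. The median difference over all genes was 0.0017, and the share of all genes with a difference above 0 was not computed. Among 8 genes of midbrain glutamate neurons (median -0.099) only Calb2, calretinin, passed, with a fall of 0.92 ± 0.21 (adjusted p = 0.0222, lost in 5 of 15 settings). Among 6 of serotonin neurons only Lmx1b, shared with dopamine neurons, passed.

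**Figure D3:**
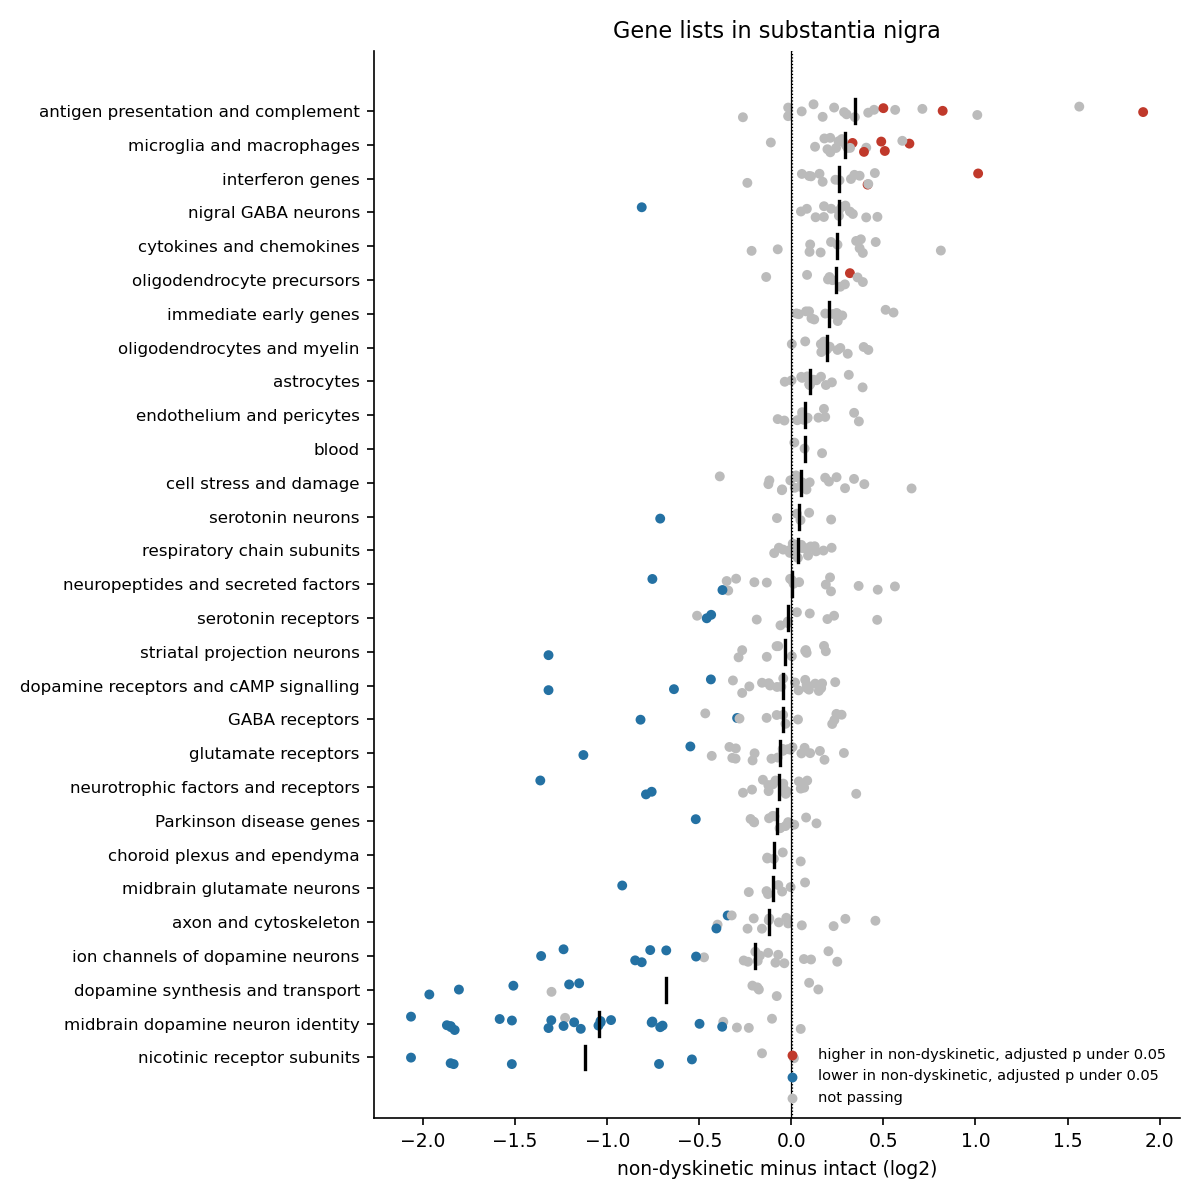
Differences between non-dyskinetic and intact nigra (log2, horizontal axis) for the tested members of 29 gene lists, 1 point per gene, with black bars at list medians and a dotted line at the median of all genes. Medians run from -1.12 for the nicotinic receptor subunits to 0.345 for antigen presentation and complement.

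Genes of the immune response were among the rises. In the list of antigen presentation and complement 3 of 19 tested rose (Cd74, C3 and C3ar1) and 0 fell, with a median of 0.345 (0.724% of all genes rose). Cd74, the chaperone of MHC class II molecules, stood at 10.72, 10.78 and 11.87 in the non-dyskinetic arrays, against 9.15, 9.13 and 9.36 in the intact arrays. All non-dyskinetic arrays lay above all intact arrays, array 3 by the most, and the rise was 1.91 ± 0.28 (adjusted p = 0.00159), 3.76-fold. The class II genes RT1-Da (1.56, adjusted p = 0.054) and RT1-Ba (1.01, adjusted p = 0.12) had large differences that did not pass, and class I gene RT1-A2 differed by -0.26. C3, the central complement component, stood at 10.79, 10.76 and 11.35 in non-dyskinetic arrays, against 10.20, 10.22 and 10.02 in intact arrays, and rose by 0.82 ± 0.16 (adjusted p = 0.00842). C3ar1, a receptor for a fragment of it, rose by 0.50 ± 0.10 (adjusted p = 0.0105), a call lost in 2 of 15 settings. Of its 2 probe sets 1 was separate.

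Of 20 genes of microglia and macrophages 5 rose (Cd68, Ptprc, Gpnmb, C1qa and Ctss), against 0.724% of all genes. In this list 0 fell, and 19 had a difference above 0 (median 0.289). Cd68, a lysosomal protein of phagocytes, stood at 7.65, 7.75 and 7.98 in non-dyskinetic arrays, against 7.17, 7.24 and 7.06 in intact arrays. It rose by 0.64 ± 0.11 (adjusted p = 0.00531) and kept its call in all 14 settings that tested it. C1qa, which starts the classical complement cascade, rose by 0.39 ± 0.09 (adjusted p = 0.019), and Ptprc, the leukocyte antigen CD45, by 0.51 ± 0.13 (adjusted p = 0.0398). The calls of C1qa and Gpnmb were lost in 5 of 15 settings each, and that of Ptprc in 6 of 14. Of 33 probe sets of Ptprc 9 were separate and 24 overlapped. Aif1, which encodes the microglial marker Iba1, stood at 7.74, 7.79 and 7.98 in non-dyskinetic arrays, against 7.51, 7.55 and 7.71 in intact arrays, separate but not passing (0.24 ± 0.09, adjusted p = 0.147). The mean over the 22 measured members was 8.74, 8.84 and 9.09 in non-dyskinetic arrays, against 8.62, 8.54 and 8.67 in intact arrays.

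Interferon genes rose in 2 of 15 tested (0.724% of all genes), with a median of 0.261. Usp18, which removes the ubiquitin-like protein Isg15 and dampens the interferon response, stood at 6.73, 6.70 and 7.13 in non-dyskinetic arrays, against 5.53, 6.02 and 5.95 in intact arrays. It rose by 1.01 ± 0.18 (adjusted p = 0.00664). Its 3 probe sets averaged 5.61 to 6.05 in intact nigra, a low level, and the filter on low values also used the lesioned arrays. Oas1a, an antiviral oligoadenylate synthetase, rose by 0.41 ± 0.11 (adjusted p = 0.0435), a call lost in 10 of 14 settings. Of its 7 probe sets 2 were separate, and the one with the highest intact level differed by -0.18. Of 13 cytokines and chemokines 0 passed in limma, and 6 were higher and 1 lower at an unadjusted p under 0.05 (7.29% and 10.8% of all genes).

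Outside the immune lists, Ecel1, an endopeptidase that injured neurons of the rat switch on, stood at 7.43, 7.92 and 8.22 in non-dyskinetic arrays, against 6.80, 6.80 and 6.82 in intact arrays. The rise of 1.05 ± 0.18 (adjusted p = 0.005) came with a wide spread in the non-dyskinetic rats and almost none in the intact rats. Ninj2, an adhesion molecule, rose by 0.52 ± 0.09 (adjusted p = 0.0032) and Mgst1, a glutathione transferase, by 0.50 ± 0.09 (adjusted p = 0.0077). Mfrp (0.72 ± 0.18) and the carbonic anhydrase Car14 (0.57 ± 0.15) rose with adjusted p of 0.0398 and 0.0409 and lost the call in 6 and 5 of 15 settings. Tmem176a, Evi2a, Ly86 and Blnk, the last an adaptor of B cell and macrophage signalling, rose by 0.49 to 0.51, and lost the call in 4, 1, 5 and 6 of 15 settings in that order.

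**Figure D4:**
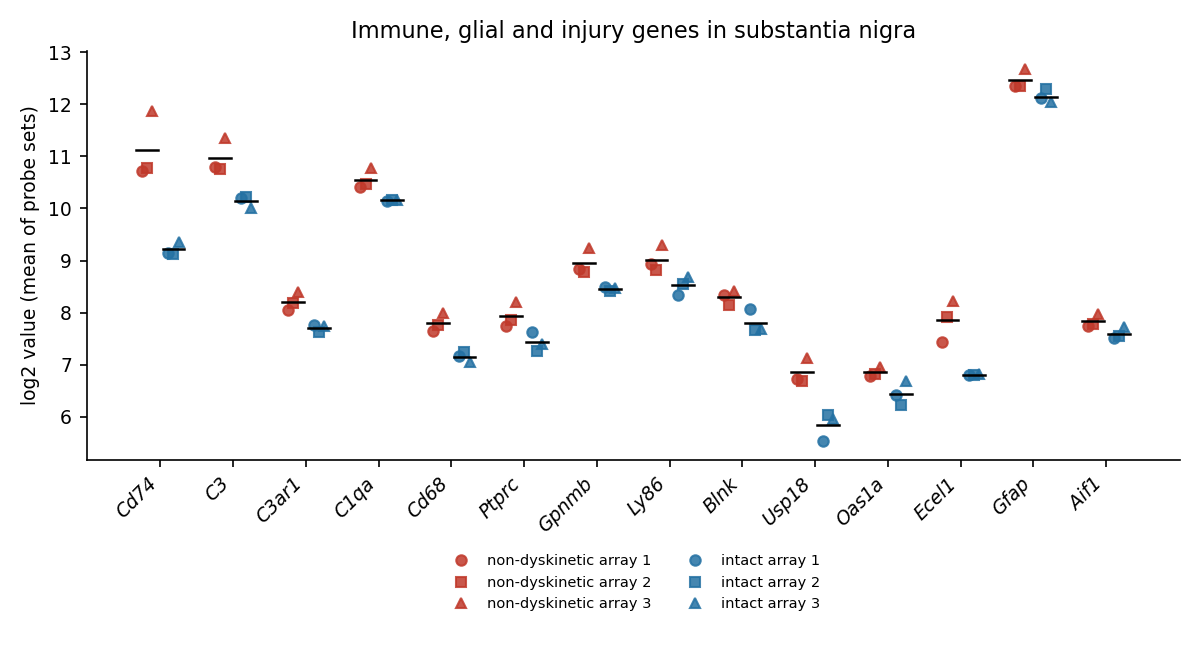
Log2 values of 14 immune, glial and injury genes in each of the 3 non-dyskinetic (red, left) and 3 intact arrays (blue, right), with black lines at group means. Cd74 shows the widest gap (10.72 to 11.87 against 9.13 to 9.36), and Gfap and Aif1 did not pass.

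The lists of other glia held 1 call, Olig1, while 0.724% of all genes tested rose. Gfap, the filament protein of reactive astrocytes, stood at 12.35, 12.35 and 12.67 in non-dyskinetic arrays, against 12.11, 12.29 and 12.04 in intact arrays. The groups were separate, but the difference of 0.31 ± 0.11 did not pass (adjusted p = 0.147), as for all 15 astrocyte genes tested. At an unadjusted p under 0.05, 2 of these 15 were higher, against 7.29% of all genes. Of 14 oligodendrocyte genes 0 passed, though all 14 differences were above 0 (median 0.192) and 9 had an unadjusted p under 0.05, against 7.29% of all genes in that direction. The mean of the 14 was 11.34, 11.55 and 11.37 in non-dyskinetic arrays, against 11.28, 11.09 and 11.25 in intact arrays, again lowest in intact array 2. Of 10 genes of oligodendrocyte precursors Olig1 rose by 0.32 ± 0.08 (adjusted p = 0.0435, lost in 9 of 15 settings). None of 14 endothelial, 5 choroid plexus, 3 blood, 20 cell stress and 21 respiratory chain genes passed, with 3, 0, 0, 6 and 1 higher at an unadjusted p under 0.05 (7.29% of all genes) and 0 lower.

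Immediate early genes, which neuronal activity switches on, did not pass in any of 14 tested, although all 14 differences were above 0 (median 0.206, 5 at an unadjusted p under 0.05, against 7.29% of all genes in that direction). Fosb stood at 6.80, 6.58 and 6.63 in non-dyskinetic arrays, against 6.49, 6.77 and 6.46 in intact arrays. These groups overlapped, and so did those of Pdyn, the dynorphin precursor, at 7.39, 7.38 and 7.73 in non-dyskinetic arrays, against 7.68, 7.69 and 7.53 in intact arrays.

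The non-dyskinetic nigra was then set against the other lesioned groups. Both comparisons use the non-dyskinetic arrays of the first, so the results are not independent, and the 3 arrays with striatal or serotonergic signals enter their group means. Against dyskinetic rats 30 genes passed (0.241%), 9 higher and 21 lower in non-dyskinetic nigra. Ret was the dopamine neuron gene among them, at 10.44, 10.43 and 10.38 in non-dyskinetic arrays and a mean of 9.79 in dyskinetic arrays (0.62, adjusted p = 0.0102). The immediate early genes Egr1 (-1.26, adjusted p = 0.0366), Arc (-0.70) and Junb (-0.56, adjusted p = 0.0102 for each) were lower in non-dyskinetic nigra. Also lower were the tubulins Tubb6 (-0.82) and Tubb2b (-0.75) and the thyroid hormone deiodinase Dio2 (-0.78). The count rested on single arrays: leaving out dyskinetic array 1, 2 or 3 gave 0, 16 and 12 genes, and leaving out non-dyskinetic array 1 or 2 gave 9 and 11.

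Against lesioned vehicle rats 0 genes passed in limma (0%), with 999 at an unadjusted p under 0.05 and a smallest adjusted p of 0.0742. Leaving out lesioned vehicle array 1, 2 or 3 gave 6, 37 and 1. Of 28 dopamine neuron identity genes 23 were higher and the rest lower in non-dyskinetic than in lesioned vehicle nigra, and none of these differences passed. Their median was 0.268, against -0.00084 over all genes. Against dyskinetic nigra 23 of the 28 were higher as well, with a median of 0.241 (0.018 over all genes), and only Ret passed. Th averaged 12.27 in non-dyskinetic, 11.46 in dyskinetic, 10.80 in lesioned vehicle and 13.42 in intact nigra. Slc18a2 averaged 9.51 in non-dyskinetic, 8.65 in dyskinetic, 8.17 in lesioned vehicle and 11.48 in intact nigra. The differences of Th from the dyskinetic (0.82, adjusted p = 0.245) and lesioned vehicle group (1.47, adjusted p = 0.171) did not pass, and neither did those of Slc18a2. Cd74 averaged 11.12 in non-dyskinetic, 11.28 in dyskinetic, 11.59 in lesioned vehicle and 9.21 in intact nigra, and its differences among the lesioned groups did not pass either.

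The difference between non-dyskinetic and intact rats passed in more genes in the nigra than in the striatum. In striatum 6 genes passed (0.0482%), and the difference itself differed between the tissues in 352 of 12114 genes (2.91%), 322 of them lower in nigra. All 3 non-dyskinetic and 2 of the 3 intact rats of the nigral arrays gave both tissues. Nr4a2 differed by -1.83 in nigra and by 0.38 in striatum, where it did not pass, and the tissue difference was -2.23 (adjusted p = 0.00196).

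**Figure D5:**
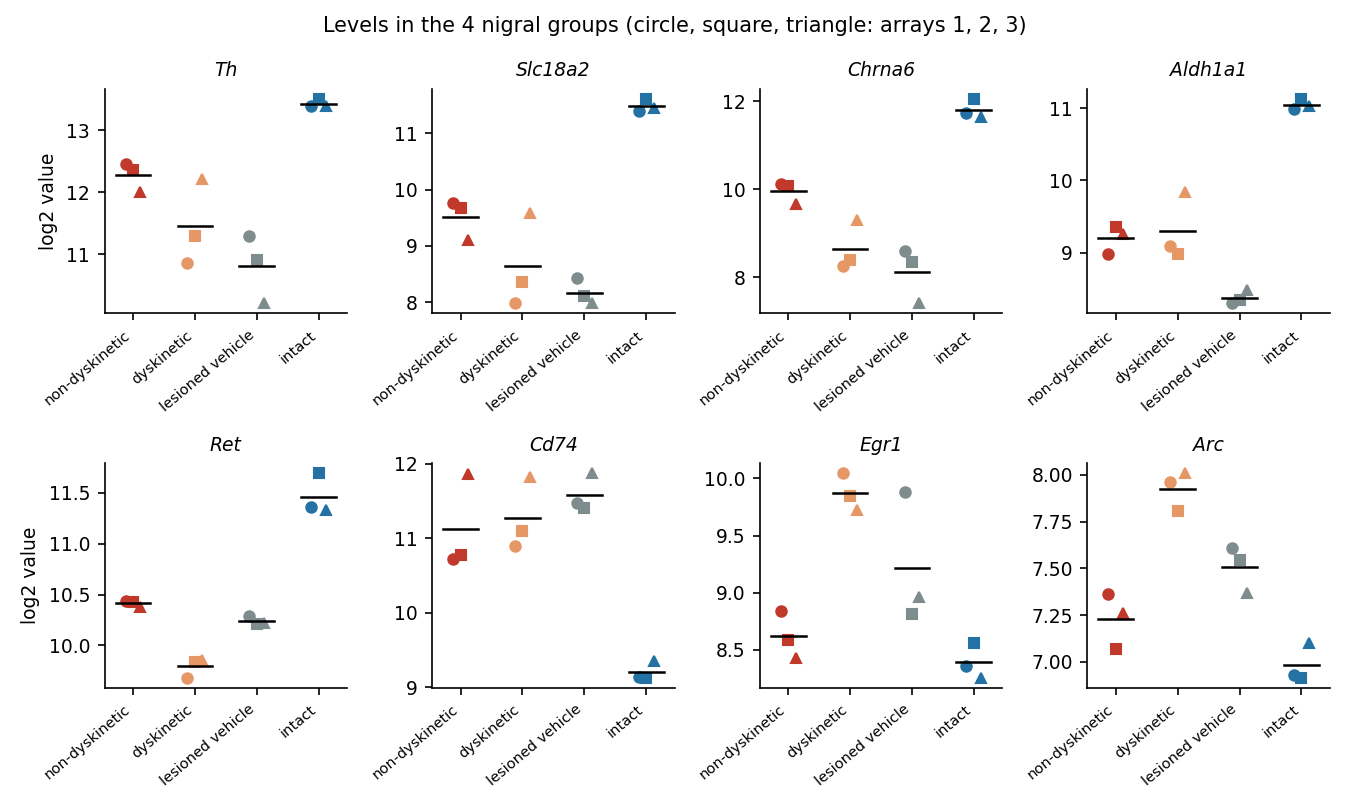
Log2 values of 8 genes in the 4 nigral groups of 3 arrays, with black lines at group means and a separate vertical scale per gene. Th averages 12.27 in non-dyskinetic, 11.46 in dyskinetic, 10.80 in lesioned vehicle and 13.42 in intact nigra, and the spread within the dyskinetic group is wider than in the non-dyskinetic group.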

How the data were processed

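RNA of 24 tissue punches was hybridised to Affymetrix exon-level arrays. The deposited log2 values were made by the authors with RMA in oligo 1.34 under R 3.2.3, per the submitters' processing notes, and the genome build is not given in the sources used here. The array annotation of 2010 names 1 gene for 172924 of 213067 probe sets, more for 1661 and none for 38482. Symbols were updated through the gene table of assembly GRCr8 (12878 current, 3700 updated, 55 kept), and the mean over probe sets naming a gene alone gave 16582 genes. The lowest 25% by mean over the nigral arrays were left out, and limma 3.58.1 in R 4.3.3 was fitted over the 12 nigral arrays, 1 mean per group. For the tissue difference all 24 arrays were used and animal was a random block (correlation 0.155). Nigral array medians ran from 8.21 to 8.32. Scripts were tested on simulated data.

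The 29 lists (479 genes, 439 with a probe set, 404 tested), the motifs and the rule for named genes were chosen with earlier results of these data known. The rule names the 15 largest rises and 15 largest falls per comparison whose arrays do not overlap, passing over predicted genes, up to 4 members per list that passed, and a fixed set that includes Th, Slc6a3, Gfap and Aif1. List members outside the rule were named after their values were seen. Lists are described by counts and medians, with no test. Alternatives were the median over probe sets, other filters, array weights, another variance prior, quantile normalization, a replicate block, the compared arrays alone and leaving out each compared array. For the tissue difference they were only the median, no filter, the replicate block, no animal block and leaving out single nigral arrays. Promoter windows are those of RefSeq, assembly GRCr8.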

Additional observations from a re-analysis of the deposited data

Results flagged for a closer look

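The difference between non-dyskinetic and intact rats was set against the same difference in striatum, where 6 of 12436 genes passed (0.0482%). It differed between the tissues in 352 of 12114 genes (2.91%), 322 lower and 30 higher in nigra than in striatum. Values below are the nigral minus the striatal difference on the log2 scale, from limma with the animal as a random block. Among genes of dopamine neurons they were -2.23 for Nr4a2, -1.67 for Aldh1a1, -1.46 for Drd2, -1.39 for Ddc, -1.26 for Ret, -1.21 for En1 and -1.11 for Pitx3. With Nr4a2, the 5 most negative were the receptors Chrm5 (-2.43), Tacr3 (-2.34) and Ntsr1 (-1.80), and Dlk1 (-1.89). Chrm5 differed by -1.82 in nigra and 0.60 in striatum, and Nr4a2 by -1.83 and 0.38, though neither striatal value passed. The most positive were Gpr139 (1.23), Ecel1 (1.21), Tmem132e (0.81), Mfrp (0.79) and Car6 (0.77). Gpr139, an orphan receptor, and Tmem132e owed this mainly to the striatum, at -0.98 and -0.72, against 0.23 and 0.08 in nigra, none of which passed. Ecel1 differed by 1.05 in nigra and -0.16 in striatum. For Th the tissue difference of -1.04 did not pass (adjusted p = 0.155).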

How the results depend on the processing

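The number of genes that differed between non-dyskinetic and intact nigra was 584, between 396 and 614 under 8 other settings (578 without the 3 arrays of other groups, chosen after seeing the data), and 991 with array weights. Of the 584, 345 to 570 also passed in each of those 8 settings, and 580 with array weights. Leaving out 1 array gave 224 to 638. Of 67 named genes that passed, 49 were tested in 15 settings and 18 in 14, since the stricter filter left them out. Of the 67, 42 kept the call in every setting that tested them, 25 lost it in at least 1, and 0 reversed. Non-dyskinetic against dyskinetic nigra gave 30 genes, 16 with the median over probe sets, 17 with the lowest 50% of genes left out, 104 with array weights, and 0 to 24 with 1 array left out. Against lesioned vehicle the 0 genes became 2 with the lowest 50% left out, 67 with array weights, 1 with the trended prior, 2 with quantile normalization, and 0 to 37 with 1 array left out. The tissue difference gave 352 genes, 210 with the median over probe sets, 257 without the animal block, and 194 to 408 with 1 nigral array left out. No striatal array was left out. The cause of these changes was not tested. Arrays of the same replicate number were not treated as pairs in the main fits. Correlations of their deviations from the group mean were -0.004, -0.133 and 0.209 between non-dyskinetic and intact arrays. They were -0.071, 0.214 and 0.204 with dyskinetic and 0.294, -0.283 and 0.041 with lesioned vehicle arrays. With 3 arrays per group these values cannot settle whether the numbers mark a batch. The replicate block gave 593, 30, 0 and 323 genes in the 4 comparisons. With 3 arrays per group, small differences cannot be resolved.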
